A study of Saccharomyces cerevisiae with 12 samples.

Results

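The Hsp70 genes examined here were SSA1, SSA2, SSA3, SSA4, SSB1, SSB2, SSE1, SSE2, SSZ1 and KAR2 of budding yeast (Saccharomyces cerevisiae), 10 of 6465 gene intervals, taken by name. They were measured by SLAM-seq, in which RNA made during a short pulse of 4-thiouracil (4tU) is read as T>C conversions after iodoacetamide treatment, and a read with at least 2 conversions is called a T>C read. The 12 libraries formed 4 groups of 3 biological replicates, in the order control strain with IAA, control strain with DMSO, ET strain with IAA and ET strain with DMSO. Both strains carried pGPD1-OsTIR1:HIS3, BDF2-3xV5-mAID::KanMX and BDF1-3xV5-mAID::URA3, so that both BET proteins of yeast bore an auxin-inducible degron in every group, DMSO cultures included, and no untagged strain was analysed here. The control strain (RDY73) had these alleles alone, whereas the ET strain (RDY388) also carried pJR15:TRP1, which overexpresses the extra-terminal domain of Bdf1, fused to a nuclear localisation signal and 3xV5, from the strong GPM1 promoter at the TRP1 locus. Cells grown in YPD at 30°C received 1 mM IAA (an auxin) in DMSO or DMSO alone for 25 min, followed by 5 mM 4tU for 4 min, and Schizosaccharomyces pombe cells were mixed in before RNA was purified. Each strain is 1 construct, so a difference between strains cannot be told apart from other differences between them, and the degron removes protein, so the RNA of BDF1 and BDF2 does not check the depletion.

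Hsp70 proteins are ATP-driven chaperones that bind short hydrophobic stretches of unfolded protein and release them when a nucleotide exchange factor replaces ADP with ATP, while J-domain proteins stimulate ATP hydrolysis. In budding yeast the cytosolic Ssa proteins fold and transport many clients and restrain the heat shock factor Hsf1. SSA1 and SSA2 are expressed in growing cells, SSA1 being raised further by heat, and SSA3 and SSA4 are known for their induction by heat. SSE1 and SSE2 encode Hsp110 proteins that act as exchange factors, Sse1 being the abundant one and SSE2 the heat-induced copy. Ssb1 and Ssb2 bind nascent chains at the ribosome, and Ssz1 forms the ribosome-associated complex with the J-protein Zuo1. Kar2 (BiP) is the Hsp70 of the endoplasmic reticulum and a target of the unfolded protein response. For description the genes were grouped as heat-inducible (SSA3, SSA4 and SSE2), constitutive (SSA1, SSA2 and SSE1), ribosome-associated (SSB1, SSB2 and SSZ1) and KAR2.

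Several of these genes carry binding letters of known regulators upstream. The heat shock element was searched as GAANNTTCNNGAA or TTCNNGAANNTTC (the same element on the 2 strands) and was found in the 500 bases before the start codon of 1.48% of 6019 genes. It matched 3 times before SSA1 (of which 2 overlap), once before SSA2, once before SSE1 and 2 overlapping times before KAR2, and these letters were not in the windows of the other genes. Only this exact, unbroken form was searched, so imperfect or gapped forms before SSA3, SSA4, SSE2 or other genes would not be seen. The KAR2 window also held CAGCGTG, the unfolded protein response element, found on either strand (CAGCGTG or CACGCTG) in 2.31% of windows. The following stretches are shown because they are the matches in the genes whose T>C reads are described first, with the matched letters in capitals, read 5′ to 3′ on the strand of the gene from the R64 genome.
SSA1 (chrI:141670-141805, minus strand): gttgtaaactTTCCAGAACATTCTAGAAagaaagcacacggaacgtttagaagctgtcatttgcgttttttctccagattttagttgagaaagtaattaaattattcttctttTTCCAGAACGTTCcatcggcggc
SSA2 (chrXII:97696-97728, minus strand): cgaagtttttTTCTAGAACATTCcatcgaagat
SSE1 (chrXVI:352439-352471, minus strand): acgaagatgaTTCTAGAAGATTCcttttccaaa
KAR2 (chrX:381112-381183, plus strand): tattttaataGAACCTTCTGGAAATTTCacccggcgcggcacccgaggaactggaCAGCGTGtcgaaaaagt

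The stress response element, which the factors Msn2 and Msn4 are known to bind, was searched as AGGGG or CCCCT, and it matched 3 times before SSA4, 2 times before SSA1 and once before SSE2, and 34.0% of windows held it. A match is a description of letters and does not show binding.

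The SSA and SSB pairs are near-identical copies, so the point at which reads can tell them apart matters for every value below. The coding sequences of SSA1 and SSA2 were 96.4% identical and those of SSB1 and SSB2 97.4%. Over the last 300 coding bases the identity was 86.4% for the SSA pair and 96.0% for the SSB pair, and over the 250 bases after the stop codon, which each interval includes, it was 52.8% and 51.5%. The last 90 coding bases of each pair are shown because the study sequenced the 3′ ends of mRNA, with capitals at the positions where the aligned copies differ.
SSA1 (chrI:139503-139592, minus strand): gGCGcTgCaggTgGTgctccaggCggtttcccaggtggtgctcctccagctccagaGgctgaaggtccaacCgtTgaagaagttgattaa
SSA2 (chrXII:95566-95655, minus strand): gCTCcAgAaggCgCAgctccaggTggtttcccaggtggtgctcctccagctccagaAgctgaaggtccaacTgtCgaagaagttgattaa
SSB1 (chrIV:45817-45906, plus strand): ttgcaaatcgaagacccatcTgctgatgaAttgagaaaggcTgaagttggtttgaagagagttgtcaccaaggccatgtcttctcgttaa
SSB2 (chrXIV:253811-253900, plus strand): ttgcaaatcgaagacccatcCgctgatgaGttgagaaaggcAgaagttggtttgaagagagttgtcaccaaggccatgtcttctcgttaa

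The SSA tails differ at 12 positions and the SSB tails at 3. Multimapping reads were nevertheless few. Over the 12 libraries they were 0.420% of the reads of SSA1 and 0.420% of those of SSA2, 0.288% for SSB1 and 0.394% for SSB2, against 0.433% for the median tested gene. Among all 10 genes and 12 libraries the highest share was 2.59%, in SSE2, whose reads per library numbered 157 to 366. The SSA2 share was 0.3998% with IAA and 0.383% with DMSO in the control strain, and 0.431% and 0.474% in the ET strain. For SSB2 these shares were 0.488% and 0.314% in the control strain, and 0.372% and 0.416% in the ET strain. A read assigned to the wrong copy without being counted as multimapping would not be seen in these shares.

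The libraries held 6279282 to 11395597 S. cerevisiae reads, 90321 to 330857 of them T>C reads, and 445036 to 722822 S. pombe reads. T>C reads numbered 90321 to 121781 per library in the control strain with IAA and 234920 to 290721 with DMSO, and 145088 to 195720 in the ET strain with IAA and 288788 to 330857 with DMSO. Depth for the Hsp70 genes was very uneven. SSA1, SSA2, SSE1 and KAR2 had 84 to 681 T>C reads in each library, the ribosome-associated genes 16 to 182, and the heat-inducible genes 1 to 23. The median tested gene averaged 21.8 T>C reads per library. All 10 genes had a T>C read in every library and so were among the 3677 genes tested, but changes of SSA3, SSA4 and SSE2 rest on few reads and are correspondingly imprecise. No library without 4tU was analysed here, so the level of T>C reads from sequencing error alone is unknown.

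To ask how new RNA of each gene changed after Bdf1 and Bdf2 depletion, T>C reads were divided by a size factor, the median over genes of each library's ratio of all reads to the geometric mean of all libraries. The study's methods name total read counts as the basis for depletion of this length. Size factors of total counts per gene and the plain sum of reads both meet that wording. The median decrease the study describes for the control strain is far larger than that on the size-factor scale. That decrease lies closer to the one with the sum of reads or S. pombe reads. With either of these scales the sign of most Hsp70 changes turned. The median tested gene of the control strain changed by -1.61 (log2) with the sum of reads and by -1.78 with S. pombe reads. On the size-factor scale it changed by -0.46, and by -0.48 in the ET strain. In all reads scaled by S. pombe reads the median changes were -1.13 and -1.03. Size factors from all reads centre that fall near 0. A gene with a change of 0 on the size-factor scale kept its T>C reads relative to the all-read depth of the typical gene.

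In the control strain, new RNA of the constitutive Ssa genes and of KAR2 was higher after depletion on this scale but lower with the sum of S. cerevisiae reads or S. pombe reads as the scale, that of SSA3 was lower, and the other 6 genes did not pass the threshold. Thus 3 genes were called higher and 1 lower, beside 14.3% of all tested genes higher, 28.7% lower and 42.9% in either direction. Among the 1994 tested genes that averaged 20 or more T>C reads per library, a group that holds 7 of the 10, 21.6% were called higher and 34.9% lower. The median change of the 10 genes was 0.26, beside -0.46 for all tested genes.

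SSA1 (YAL005C, chromosome I, 139253 to 141431, minus strand) had 321, 228 and 331 T>C reads in the control strain with IAA, and 607, 524 and 512 with DMSO. After scaling these became 509, 508 and 564 normalised T>C reads with IAA, and 382, 331 and 373 with DMSO. All 3 IAA libraries therefore lay above all 3 DMSO libraries after scaling, as in 16.5% of tested genes, although the raw counts lay below them. The mean was 527 ± 31.8 with IAA and 362 ± 27.4 with DMSO (SD, n = 3 each), a 1.46-fold difference (log2 change 0.54, SE 0.13, edgeR adjusted p = 0.000354). The SSA1 interval also shares 252 bases with that of TRN1 on the other strand.

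SSA2 (YLL024C, chromosome XII, 95316 to 97485, minus strand) had 360, 298 and 359 T>C reads with IAA, and 633, 681 and 520 with DMSO. Its normalised T>C reads were 571, 664 and 611 with IAA, and 398, 430 and 379 with DMSO, again without overlap. The log2 change was 0.61 (SE 0.13, adjusted p = 4.0e-05). With the reads of SSA1 and SSA2 summed, so that assignment between the copies plays no part, the log2 change of the pair was 0.58 (adjusted p = 2.13e-05).

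KAR2 (YJL034W, chromosome X, 381327 to 383625, plus strand) had 163, 119 and 170 T>C reads with IAA, and 267, 278 and 237 with DMSO. Its normalised T>C reads were 258, 265 and 289 with IAA, and 168, 175 and 173 with DMSO. KAR2 had the largest rise of the 10 genes on this scale, with a log2 change of 0.66 (SE 0.15, adjusted p = 0.000167). SSE1 (YPL106C, chromosome XVI, 349944 to 352275, minus strand), the third constitutive gene, had 201, 187 and 211 normalised T>C reads with IAA, and 171, 211 and 157 with DMSO. Its ranges overlapped and its log2 change of 0.16 (SE 0.15, adjusted p = 0.41) did not pass the threshold. The calls for SSA1, SSA2 and KAR2 were kept in all 12 fits that each left out 1 library.

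**Figure D1:**
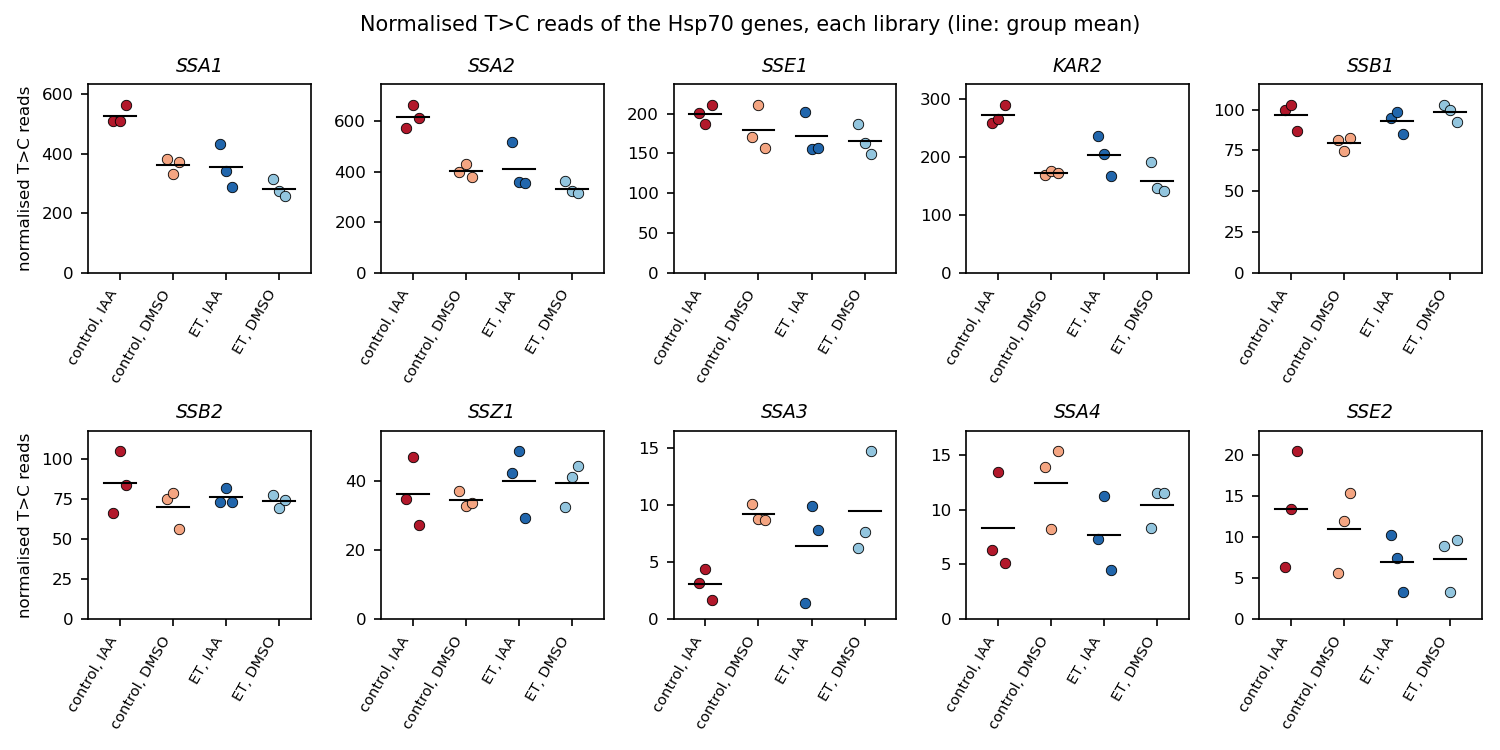
Normalised T>C reads of each Hsp70 gene (vertical axis, size factors from all reads) in each library, 1 panel per gene, with the groups along the horizontal axis. Points are the 3 replicates of a group and lines their means; SSA1, SSA2 and KAR2 with IAA lie above DMSO in the control strain, where the means of SSA1 are 527 and 362.

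The direction of these changes depended on what the reads were scaled to. With S. pombe reads as the scale, the log2 change in the control strain was -0.79 for SSA1, -0.72 for SSA2 and -0.67 for KAR2, and all 10 Hsp70 genes were called lower, beside 81.7% of all tested genes. With the sum of S. cerevisiae reads the changes were -0.61, -0.54 and -0.49 for the same genes, and 9 of the 10 were called lower, beside 79.7%. Scaled by TMM (trimmed mean of M-values) of the T>C reads themselves, 6 genes were called higher, beside 22.5% of tested genes, and none lower. The median change of all tested genes moved along, being -1.78 with S. pombe reads, -1.61 with the sum of reads and -0.09 with TMM. The position of each Hsp70 gene relative to that median was nearly the same throughout, since a scaling shifts all genes of a comparison by about the same amount. SSA1 lay 1.00 to 1.01 (log2) above the median gene, SSA2 1.06 to 1.07 above it over the 4 scalings, KAR2 at least 1.11, and SSA3 lay between -1.13 and -1.08 relative to it. Thus the change of SSA1, SSA2 and KAR2 lay above that of the median gene, which no choice of scale could much alter. Its sign was set by the choice of scale. It was negative with the sum of reads and S. pombe reads, the scales closest to the median decrease the study describes.

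**Figure D2:**
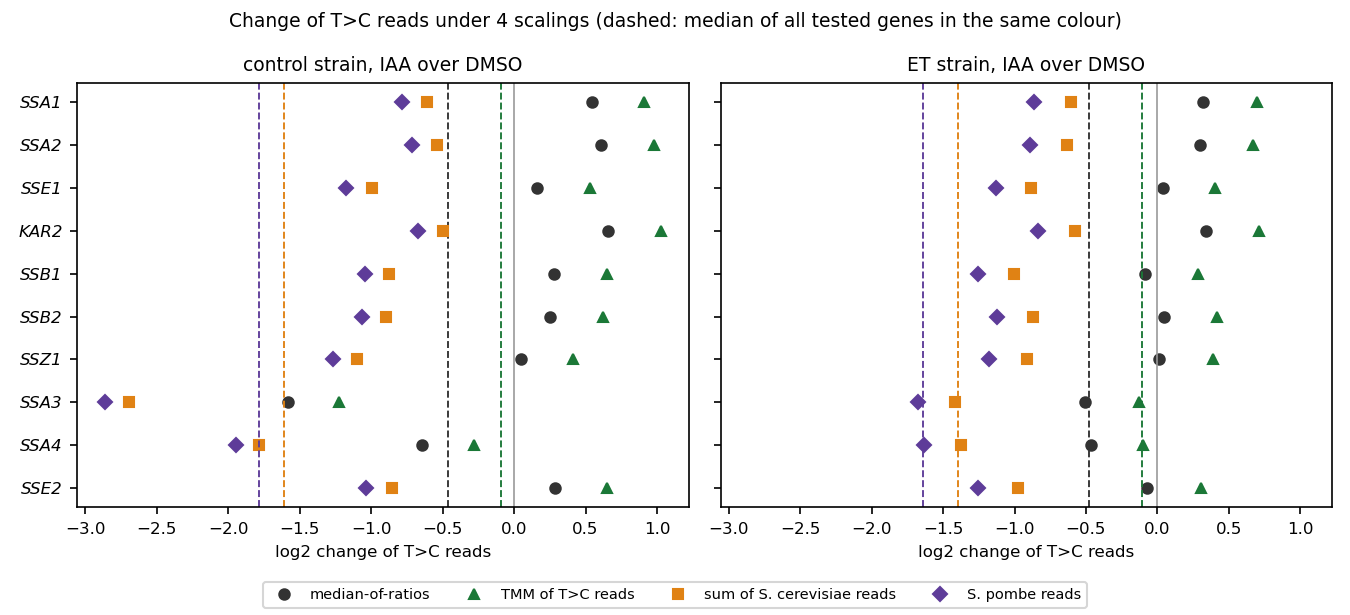
Log2 change of T>C reads (horizontal axis, IAA over DMSO) of each Hsp70 gene under 4 scalings, in the control strain (left) and the ET strain (right). Symbols of 1 colour belong to 1 scaling and dashed lines mark the median of all tested genes under it. Symbols and lines shift together by construction, so SSA1 stays 1.00 to 1.01 above the median in the control strain. Its change there is 0.54 under size factors and -0.79 under S. pombe reads.

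The ribosome-associated genes sat closer to 0 on the size-factor scale. SSB1 (YDL229W, chromosome IV, 44065 to 46156, plus strand) had 99.8, 102.5 and 86.8 normalised T>C reads in the control strain with IAA, and 81.2, 74.5 and 82.3 with DMSO. These ranges did not overlap, as was so for 16.5% of tested genes in the same direction, but the log2 change of 0.28 (SE 0.19, adjusted p = 0.22) did not pass the threshold. SSB2 (YNL209W, chromosome XIV, 252059 to 254150, plus strand) averaged 84.9 ± 19.1 with IAA and 70.0 ± 12.2 with DMSO (SD, n = 3 each), with a log2 change of 0.25 (SE 0.20). SSZ1 (YHR064C, chromosome VIII, 225275 to 227141, minus strand) averaged 36.3 ± 9.86 with IAA and 34.5 ± 2.31 with DMSO, with a log2 change of 0.05 (SE 0.28). Relative to the median tested gene the changes of these 3 genes were 0.74, 0.72 and 0.51. The summed SSB1 and SSB2 reads gave 0.27 (adjusted p = 0.15).

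Heat-inducible members gave a wider range of changes than the other groups, on only 1 to 23 T>C reads per library. SSA3 (YBL075C, chromosome II, 84249 to 86448, minus strand) had 2, 2 and 1 T>C reads in the control strain with IAA, and 16, 14 and 12 with DMSO. Its normalised T>C reads were 3.17, 4.46 and 1.70 with IAA, and 10.1, 8.84 and 8.75 with DMSO, without overlap, as in 35.8% of tested genes in that direction. SSA3 was 3.00-fold lower after depletion (log2 change -1.58, SE 0.65, adjusted p = 0.040), which placed it at the 9.08 percentile of the changes of all tested genes. With the sum of S. cerevisiae reads it was also called lower (log2 change -2.70, adjusted p = 2.7e-05), and likewise with S. pombe reads (-2.86, 2.1e-05), scales on which most genes were. On the size-factor scale the call was lost with DESeq2 (adjusted p = 0.098), with TMM (0.14), without the filter on T>C reads (0.066), and in each of the 6 fits that each lacked 1 control-strain library. In these the adjusted p was 0.11, 0.051 and 0.17 with replicates A, B and C of the IAA group left out in turn, and 0.072, 0.05319 and 0.052 with those of the DMSO group left out. The SSA3 interval also shares 13 bases with that of ILS1 on the same strand.

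SSA4 (YER103W, chromosome V, 364589 to 366767, plus strand) had 4, 6 and 3 T>C reads with IAA and 22, 13 and 21 with DMSO, or 8.27 ± 4.46 and 12.4 ± 3.75 after scaling (SD, n = 3 each). Its log2 change was -0.65 (SE 0.49, adjusted p = 0.28), close to the median tested gene. SSE2 (YBR169C, chromosome II, 573665 to 575996, minus strand) had 4, 6 and 12 T>C reads with IAA and 9, 19 and 21 with DMSO, and its log2 change was 0.28 (SE 0.46, adjusted p = 0.63). Both sets of normalised values overlapped. The heat-inducible changes thus ran from -1.58 to 0.28, beside 0.16 to 0.61 in the constitutive group and 0.05 to 0.28 in the ribosome-associated group. The heat-inducible SEs were also larger than those of the other groups, and whether the wider range exceeds counting error was not tested.

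**Figure D3:**
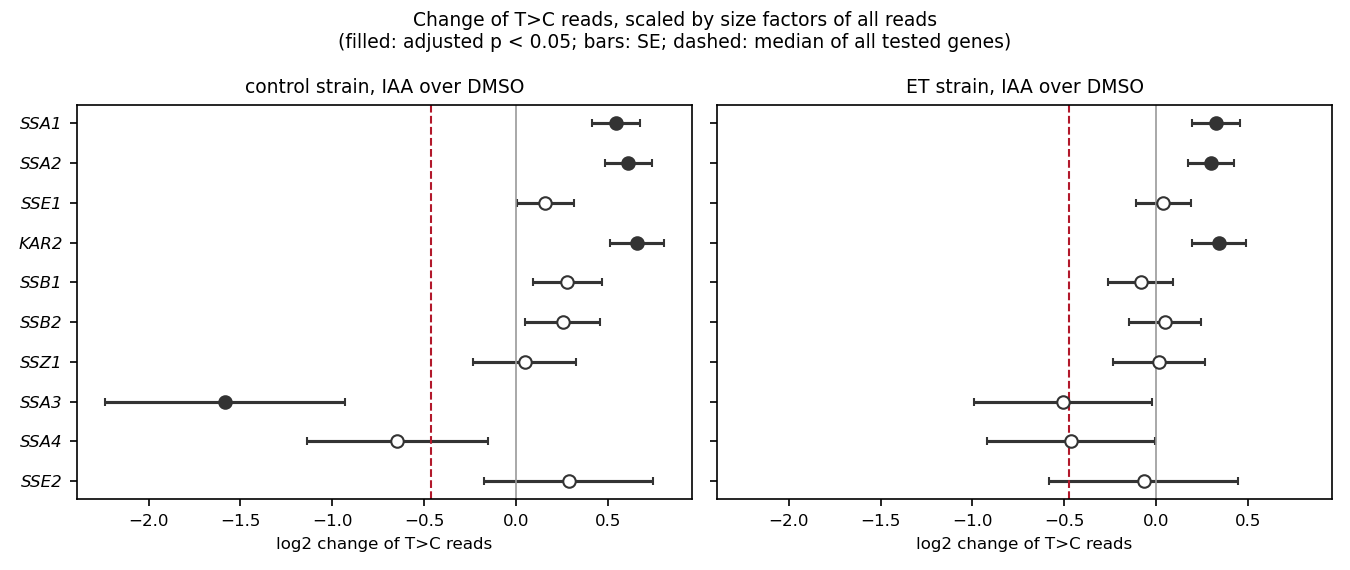
Log2 change of T>C reads on the size-factor scale (horizontal axis, IAA over DMSO) with its SE for each Hsp70 gene, in the control strain (left) and the ET strain (right). Filled points passed an adjusted p of 0.05 and the dashed line is the median of all tested genes, -0.46 and -0.48; SSA1, SSA2 and KAR2 are filled on the right of 0 in both strains, and SSA3 on the left in the control strain.

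The same comparison in the ET strain again gave a sign that was set by the scale. On the size-factor scale SSA1, SSA2 and KAR2 were called higher after depletion, the opposite sign to that with the sum of reads or S. pombe reads, and none of the 10 was called lower, beside 12.1% of tested genes higher, 30.2% lower and 42.2% in either direction. The median change of the 10 genes was 0.03, beside -0.48 for all tested genes. Normalised T>C reads of SSA1 were 432, 342 and 287 in the ET strain with IAA, and 315, 274 and 257 with DMSO, so that the ranges overlapped. The log2 change of SSA1 was 0.32 (SE 0.13, adjusted p = 0.036), that of SSA2 0.30 (SE 0.13, adjusted p = 0.049) and that of KAR2 0.34 (SE 0.15, adjusted p = 0.0499). With S. pombe reads as the scale the changes were -0.87, -0.89 and -0.84, and all 10 genes were called lower, beside 83.7% of tested genes. With the sum of S. cerevisiae reads 9 were, beside 79.6%.

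These 3 calls stood near the threshold on the size-factor scale and depended on the setting. With TMM all 3 were called, at 0.69 for SSA1 (adjusted p = 1.77e-06), 0.67 for SSA2 (1.63e-06) and 0.71 for KAR2 (1.48e-05), as was SSE1 (0.40, 0.021), beside 21.0% of tested genes higher. With DESeq2 none remained, and leaving out 1 library gave between 0 and 3 genes. Replicate A with IAA was the highest of its group for all 3 genes, and without it the log2 change was 0.16 for SSA1, 0.10 for SSA2 and 0.23 for KAR2, with none called. None was called either when replicate B or C of the DMSO group was left out. With replicate B of the IAA group left out SSA2 alone remained, and SSA1 alone remained with any 1 of the control-strain DMSO libraries left out.

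SSA3 in the ET strain had 1, 8 and 7 T>C reads with IAA and 9, 14 and 23 with DMSO, and its log2 change was -0.51 (SE 0.48, adjusted p = 0.39). SSA4 changed by -0.46 (SE 0.46) and SSE2 by -0.07 (SE 0.51). SSB1 had 92.8 ± 6.76 normalised T>C reads with IAA and 98.2 ± 5.46 with DMSO (SD, n = 3 each), a log2 change of -0.08 (SE 0.18). The changes of SSE1, SSB2 and SSZ1 lay between 0.01 and 0.05. Relative to the median gene, SSA1 lay 0.78 to 0.80 above it and KAR2 0.81 to 0.82 above it over the 4 scalings.

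Whether the strains responded to depletion differently was tested directly as an interaction. No Hsp70 gene passed the threshold, beside 0.109% of all tested genes (4 of 3677, with 5.96% at an unadjusted p under 0.05), and none of the 10 had an unadjusted p under 0.05. The interaction was 1.08 (SE 0.84, adjusted p = 0.87) for SSA3, -0.22 (SE 0.18, adjusted p = 0.88) for SSA1, -0.31 (SE 0.18, adjusted p = 0.83) for SSA2 and -0.31 (SE 0.21, adjusted p = 0.85) for KAR2. The call for SSA3 in the control strain alone is therefore not shown to differ between the strains.

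Set side by side after depletion, the strains differed for the constitutive Ssa genes. With IAA, SSA1 averaged 354 ± 73.2 normalised T>C reads in the ET strain and 527 ± 31.8 in the control strain (SD, n = 3 each), without overlap. Its log2 difference was -0.58 (SE 0.13, adjusted p = 0.0049). SSA2 averaged 410 ± 92.4 in the ET strain and 615 ± 47.0 in the control strain, also without overlap, and differed by -0.59 (SE 0.13, edgeR adjusted p = 0.0033). Of all tested genes, 4.38% were lower in the ET strain without overlap. On the size-factor scale these 2 genes were the only ones of the 10 called, both lower, beside 0.571% of tested genes called lower and 1.28% in either direction, with a median difference of 0.17 over all tested genes. KAR2 had 202 ± 34.6 in the ET strain and 271 ± 16.4 in the control strain, a difference of -0.43 (SE 0.15, adjusted p = 0.15).

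The sign of the Ssa difference was the same under all 4 scalings, but its call was not. The difference was -0.31 for SSA1 and -0.32 for SSA2 with the sum of S. cerevisiae reads and -0.30 and -0.31 with S. pombe reads, and neither gene was called under these. With TMM the difference was -0.75 for SSA1 (adjusted p = 8.0e-06) and -0.76 for SSA2 (2.2e-06), and KAR2 was called as well (-0.60, 0.0055), beside 2.01% of tested genes called lower. Relative to the median gene the difference was -0.78 to -0.75 for SSA1 and -0.79 to -0.76 for SSA2. Leaving out ET replicate C left neither called (log2 difference -0.45 and -0.49). Leaving out control replicate C lost SSA1 (-0.53), and leaving out ET replicate B lost SSA2 (-0.50). With DMSO no Hsp70 gene was called between the strains by edgeR, beside 0.163% of tested genes (11.6% at an unadjusted p under 0.05), and DESeq2 called 0 of the 10. At an unadjusted p under 0.05 there were 2. These were SSA1, with 282 ± 29.9 in the ET strain and 362 ± 27.4 in the control strain (log2 difference -0.36, SE 0.13, edgeR adjusted p = 0.24), and SSA2 (-0.27, SE 0.12, edgeR adjusted p = 0.37). For both genes the ET libraries lay below the control libraries with DMSO too, without overlap, as in 2.04% of tested genes. With TMM, SSA1 was called in this comparison (-0.53, adjusted p = 0.0109). The 2 comparisons of depletion and the 2 of strains share libraries, so their values are given side by side only.

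The labelled share, the percent of a gene's reads that are T>C reads, needs no scaling between libraries. It was called lower after depletion in 9 of the 10 genes in the control strain, beside 31.4% of all tested genes and 44.8% of those averaging 20 or more T>C reads. It was called lower in 8 in the ET strain, beside 21.6% of all tested genes and 28.7% of the deeper ones. The median change in log2 odds was -0.93 for the 10 genes and -0.68 for all tested genes in the control strain, and -0.89 and -0.64 in the ET strain. The share also depends on all reads of a gene. Scaled by S. pombe reads, these changed by a median of -0.13 for the 10 genes and -1.13 for all tested genes in the control strain. In the ET strain the medians were -0.23 and -1.03. A larger fall in share is therefore not by itself a larger fall in new RNA.

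The ribosome-associated genes had the lowest shares of the 10 in each condition, whereas the heat-inducible and constitutive genes were interleaved. With DMSO in the control strain the ribosome-associated genes were labelled in 1.35% to 1.62% of reads, SSE1 in 2.53% and the other constitutive genes in 3.69% (SSA2) and 5.54% (SSA1), beside 5.92% for the median tested gene. SSB2, SSB1 and SSZ1 stood at the 5.58, 7.48 and 7.64 percentiles of tested genes in that group, and KAR2, with 6.06%, at the 51.5 percentile. SSA3, SSA4 and SSE2 had 5.40%, 6.51% and 5.26%, with a wide spread for SSA4 and SSE2. The shares of the copies within each of the SSA and SSB pairs also differed, SSA1 exceeding SSA2 in 10 of the 12 libraries and SSB1 exceeding SSB2 in 11.

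Labelled shares of SSB1 were 0.857%, 0.925% and 0.755% in the control strain with IAA, and 1.62%, 1.47% and 1.70% with DMSO. ET cells had shares of 0.991%, 1.21% and 1.15% with IAA, and 2.13%, 2.15% and 2.50% with DMSO. No 2 of the 4 groups overlapped for this gene. Of all tested genes, 49.3% in the control strain and 49.8% in the ET strain had lower shares with IAA without overlap. Shares were higher in the ET strain without overlap in 17.2% with DMSO and 19.0% with IAA. Its log2 odds changed by -0.92 (SE 0.17, limma adjusted p = 0.0029) in the control strain and by -1.03 (SE 0.17, adjusted p = 0.0030) in the ET strain. Between strains with DMSO the difference of 0.51 (SE 0.17) had an unadjusted p of 0.0106 and an adjusted p of 0.92.

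SSA1 shares were 3.22%, 3.26% and 3.69% in the control strain with IAA, and 5.96%, 5.15% and 5.52% with DMSO. The change was -0.74 (SE 0.24, adjusted p = 0.034), near that of the median gene. SSE1 fell further, with 1.26%, 1.04% and 1.25% with IAA and 2.49%, 2.89% and 2.22% with DMSO, a change of -1.11 (SE 0.18, adjusted p = 0.0014). KAR2 averaged 3.66% ± 0.289 with IAA and 6.06% ± 0.0833 with DMSO (SD, n = 3 each), a change of -0.77 (SE 0.21, adjusted p = 0.020).

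The 2 changes furthest below the median in the control strain were in heat-inducible genes. SSA3 shares were 1.14%, 2.11% and 0.592% in the control strain with IAA, and 5.28%, 5.49% and 5.43% with DMSO, and its log2 odds changed by -1.97 (SE 0.55, adjusted p = 0.021), at the 1.20 percentile of tested genes. The Wilson 95% interval of the lowest of these shares ran from 0.105% to 3.28%, covering counting error only. SSA4 shares were 1.86%, 3.33% and 1.13% with IAA, and 7.61%, 4.26% and 7.66% with DMSO, and changed by -1.65 (SE 0.41, adjusted p = 0.013). In the ET strain SSA4 changed by -1.35 (SE 0.41, adjusted p = 0.039), whereas SSA3, with 0.599%, 3.86% and 2.93% with IAA and 3.85%, 4.68% and 8.36% with DMSO, changed by -1.34 (SE 0.55) and did not pass the threshold (adjusted p = 0.098). SSE2 was not called in either strain (-0.40 and -0.46, SE 0.58 each), and its shares overlapped. No Hsp70 gene differed between the strains in labelled share by limma, with 1 of the 10 at an unadjusted p under 0.05 in each treatment, and 0.0% of tested genes were called (4.9% with DMSO and 18.7% with IAA had an unadjusted p under 0.05).

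**Figure D4:**
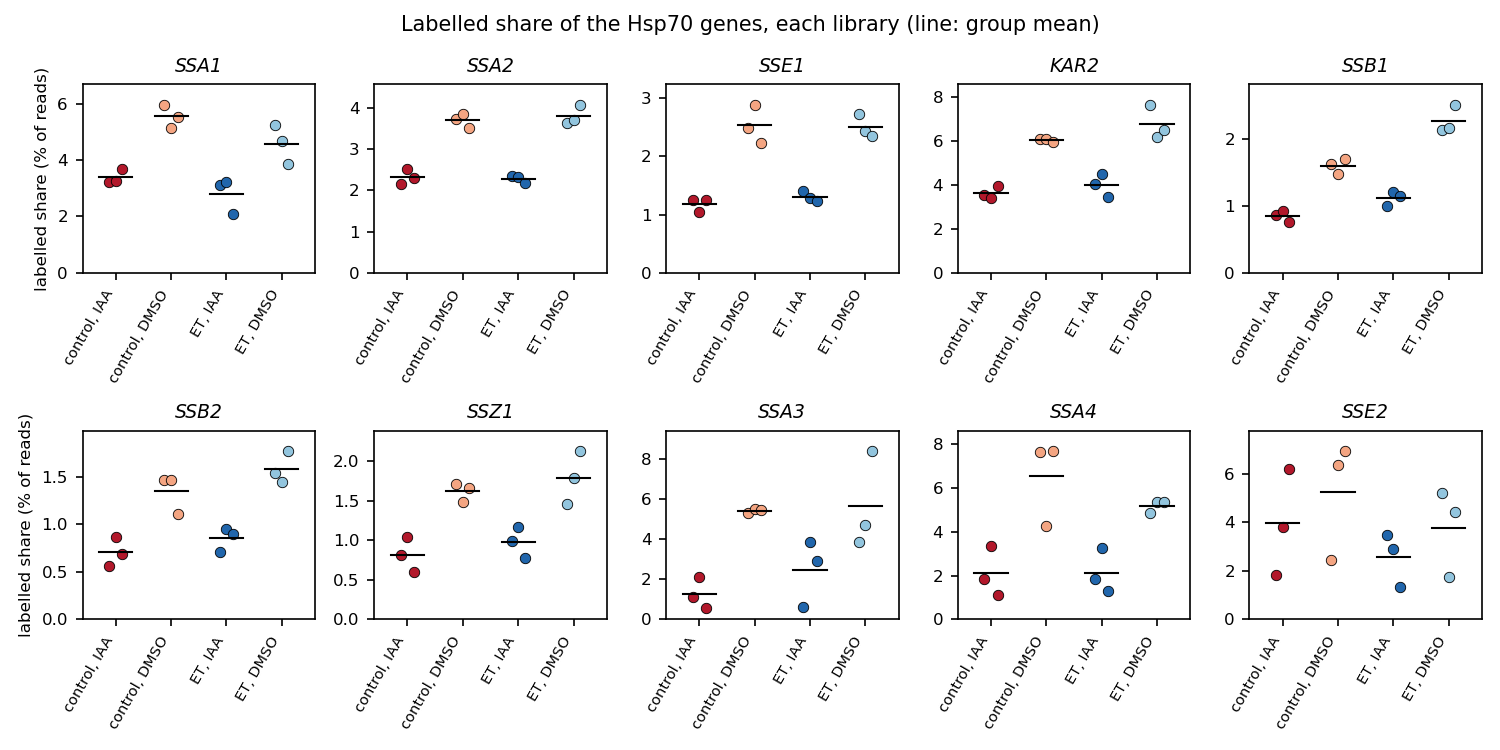
Labelled share of each Hsp70 gene (vertical axis, T>C reads as a percent of the gene's reads) in each library, with the groups along the horizontal axis. Points are the 3 replicates of a group and lines their means. The shares with IAA lie below those with DMSO in both strains for 8 genes, and SSE2 overlaps in both. Of all tested genes, 49.3% had IAA shares below all DMSO shares in the control strain and 49.8% in the ET strain.

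Single libraries decided part of these counts. In the control strain leaving out 1 library left 5 to 9 genes called, the lowest without replicate B of the DMSO group. The same fits of the ET strain left 2 to 8. The lowest count was reached without replicate C of the DMSO group, when only SSE1 and SSB1 remained, and 4 or 5 genes were called without replicate A or B of that group or replicate A or C of the IAA group. SSE1 and SSB1 were called in both strains in all 12 such fits.

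All reads of a gene mostly reflect RNA made before labelling. Scaled by S. pombe reads, the median tested gene changed by -1.13 in the control strain and by -1.03 in the ET strain, and 76.4% and 76.8% of tested genes were called, mainly lower (74.2% and 75.8%). Of the 10 Hsp70 genes only SSA3 and SSE2 were called, both lower in both strains. SSA3 had 167, 129 and 165 scaled reads in the control strain with IAA, and 282, 245 and 236 with DMSO, a log2 change of -0.72 (SE 0.20, adjusted p = 0.000457). SSE2 had 207, 213 and 189 with IAA, and 341, 287 and 324 with DMSO, a change of -0.64 (SE 0.19, adjusted p = 0.0012). In the ET strain the changes were -0.55 (SE 0.20, adjusted p = 0.0072) for SSA3 and -0.74 (SE 0.19, adjusted p = 0.0002) for SSE2. Even these lay above the median gene, by 0.41 and 0.49 in the control strain and by 0.49 and 0.30 in the ET strain.

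The remaining 8 genes changed by -0.28 to 0.06 in the control strain and by -0.33 to -0.07 in the ET strain, none of them called. SSA2, for example, had 15751 ± 380 scaled reads with IAA and 16234 ± 704 with DMSO in the control strain (SD, n = 3 each). KAR2 had 4403 ± 266 and 4228 ± 150. SSZ1 had 2631 ± 101 and 3179 ± 207, and its ranges did not overlap, as in 79.1% of tested genes in that direction. With size factors from all reads as the scale, which centre the median gene near 0, all 10 genes were called higher in both strains, beside 47.8% of tested genes in the control strain and 44.9% in the ET strain, with changes of 0.61 to 1.39 in the control strain and 0.45 to 1.11 in the ET strain. No Hsp70 gene was called between the strains under S. pombe scaling in either treatment (0.354% of tested genes with DMSO, 16.5% with IAA). For the ET cultures the count of 2 became 8 without replicate C of the IAA group and 1 without its replicate A or without replicate C of the DMSO group, where the SSA3 change was -0.40 and -0.37. Replicate C of the ET strain stood apart for SSA1, with 12111 scaled reads with IAA, against 7598 and 8418 in the other replicates, and 13116 with DMSO, against 8864 and 8962.

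**Figure D5:**
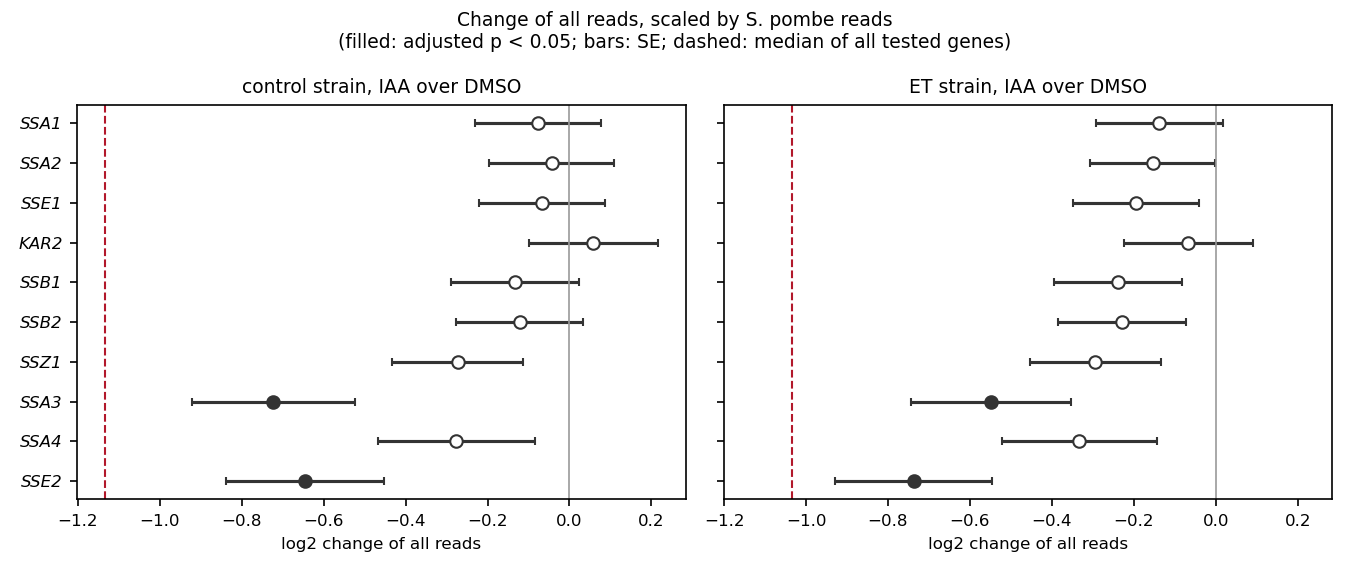
Log2 change of all reads scaled by S. pombe reads (horizontal axis, IAA over DMSO) with its SE for each Hsp70 gene, in the control strain (left) and the ET strain (right). The dashed line is the median of all tested genes, -1.13 and -1.03; every Hsp70 gene lies to its right, and SSA3 and SSE2 are filled (adjusted p under 0.05) in both strains.

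Ratios within a library are free of any scaling, and the constitutive genes in them include SSA1, which heat also raises. Together the 10 genes took 0.926% ± 0.0195 of T>C reads in the control strain with IAA and 0.762% ± 0.0231 with DMSO, and 0.653% ± 0.116 and 0.601% ± 0.0643 in the ET strain (SD, n = 3 each). The IAA and DMSO ranges did not overlap in the control strain and overlapped in the ET strain. T>C reads of the heat-inducible genes numbered 18.3 ± 5.41 per 1000 T>C reads of the constitutive genes in the control strain with IAA and 34.8 ± 7.42 with DMSO (SD, n = 3 each), and these ranges did not overlap (12.4 to 23.0 and 29.9 to 43.3). The ratio in the ET strain was 23.2 ± 8.97 with IAA and 35.5 ± 12.4 with DMSO, with overlap. Per 1000 T>C reads of the ribosome-associated genes, the heat-inducible genes had 113 ± 30.8 with IAA and 179 ± 42.9 with DMSO in the control strain, and 99.7 ± 22.1 and 129 ± 35.6 in the ET strain. Summed over the 3 heat-inducible genes these ratios rest on 10 to 16 T>C reads per library in the control strain with IAA and 46 to 54 with DMSO. In all reads the same ratio to the constitutive genes was 16.9 ± 1.10 with IAA and 23.5 ± 1.71 with DMSO in the control strain, and 20.4 ± 2.02 and 26.0 ± 3.66 in the ET strain.

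T>C reads of the ribosome-associated genes per 1000 of the constitutive genes were 162 ± 22.6 with IAA and 195 ± 7.44 with DMSO in the control strain, and 228 ± 42.5 and 272 ± 23.3 in the ET strain. The ET strain thus had the higher ratio with DMSO (247 to 292, against 189 to 203 in the control strain), without overlap, whereas with IAA the ranges overlapped (183 to 267 and 143 to 187). Within the pairs, SSA1 had 0.860 ± 0.0832 T>C reads per T>C read of SSA2 in the control strain with IAA and 0.904 ± 0.118 with DMSO, and 0.866 ± 0.0753 and 0.845 ± 0.0277 in the ET strain, all within the spread of replicates. These ratios are descriptions and carry no test.

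Genes with the most similar course of normalised T>C reads were named for the heat-inducible and the ribosome-associated gene with the most T>C reads, from 1987 other genes averaging 20 or more T>C reads. For SSA4 (mean 11.5 T>C reads) these were YSH1 (Pearson r = 0.87), UTP6 (0.82) and MNN10 (0.82), and for SSB1 (mean 101) they were GND1 (0.81), STM1 (0.81) and SGT2 (0.78). Among Hsp70 genes, SSA4 had r = 0.53 with SSA3 and 0.10 with SSE2, its own class, and 0.63 with SSZ1. SSB1 had r = 0.27 with SSB2 and 0.50 with SSZ1, its own class, and 0.30 with KAR2. These correlations run over 12 libraries of 4 groups, which share their depth, and are descriptions only.

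The partners and neighbours of the Hsp70 system were examined as 4 lists. Of 14 cytosolic cochaperones (J-domain proteins and exchange factors), 13 were tested. In the control strain on the size-factor scale 1 was called higher and 3 lower, beside 14.3% of all tested genes higher and 28.7% lower. YDJ1, the main partner of Ssa1, had 189 ± 30.3 normalised T>C reads with IAA and 138 ± 10.7 with DMSO (log2 change 0.46, SE 0.16, adjusted p = 0.015), and JJJ1 and SNL1 changed by -2.09 (SE 0.49) and -2.05 (SE 0.54). With ET overexpressed, 1 was called higher (YDJ1, 0.37, edgeR adjusted p = 0.048) and 6 lower, beside 12.1% and 30.2% of tested genes, with JJJ3 (-1.37) and SNL1 (-1.25) lowest. The median change of this list was -0.30 in the control strain and -0.70 in the ET strain. In all reads 11 of 13 were called lower in the control strain and 13 of 13 in the ET strain, beside 74.2% and 75.8% of all tested genes.

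Of the 4 Hsp70 and Hsp110 genes of mitochondria and endoplasmic reticulum outside the set, 3 were tested. On the size-factor scale SSC1, the essential mitochondrial Hsp70, was higher after depletion in the control strain (195 ± 25.0 with IAA and 142 ± 18.9 with DMSO, log2 change 0.46, SE 0.16, edgeR adjusted p = 0.012). The labelled share of SSC1 was lower in both strains (change in log2 odds -0.88 and -0.73, limma adjusted p = 0.0079 and 0.026). SSQ1, the mitochondrial Hsp70 of iron-sulfur cluster assembly, was lower in T>C reads in both strains (-2.15 and -1.96, SE 0.73 and 0.62). Of 11 genes of folding and stress response in the endoplasmic reticulum, 7 were tested. On the size-factor scale 3 were called higher in the control strain and 2 lower. Among those higher were PDI1, the disulfide isomerase (1.35, SE 0.32, edgeR adjusted p = 0.00041), and ERO1, its oxidase (0.66, SE 0.20, edgeR adjusted p = 0.0058). Those lower were FPR2 (-1.89, SE 0.58) and SEC63 (-0.99, SE 0.32). With ET overexpressed, PDI1 (0.97) and HAC1 (0.67), which encodes the transcription factor of the unfolded protein response, were called higher on this scale. FPR2 (-1.33) and SEC63 (-0.998) were called lower. Of all tested genes, 14.3% were called higher and 28.7% lower in the control strain, and 12.1% and 30.2% in the ET strain.

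Of 16 other genes known as targets of Hsf1, 15 were tested. In the control strain 5 were called higher and none lower, beside 14.3% and 28.7% of tested genes, with a median change of 0.21. HSP42, a small heat shock protein, changed by 0.70 (SE 0.23, adjusted p = 0.0080) and MBF1 by 0.69 (SE 0.12, adjusted p = 1.96e-06). In the ET strain 2 were called higher, HSC82, a constitutive Hsp90 (0.44, SE 0.11, edgeR adjusted p = 0.00084), and MBF1 (0.35, SE 0.12, edgeR adjusted p = 0.015). The median of the list there was 0.08, and 12.1% of tested genes were called higher. With IAA, 2 were lower in ET cells than in control cells, BTN2 (-0.65, SE 0.16) and HSP82 (-0.51, SE 0.12), beside 0.571% of tested genes. With DMSO none was called by edgeR, beside 0.163% of tested genes in either direction. The directions of T>C reads in all these lists are on the size-factor scale, on which the median tested gene changed by -0.46 and -0.48 after depletion. With the sum of reads and S. pombe reads that median was -1.61 and -1.78 in the control strain, and -1.40 and -1.64 in the ET strain. A scaling shifts all genes of a comparison by about the same amount. Rises in these lists smaller than that shift are therefore falls on those scales, where their values are not given here. The labelled share of the Hsf1 list was called lower in 12 of 15 genes in the control strain and 10 of 15 in the ET strain. Beside these stood 31.4% and 21.6% of all tested genes and 44.8% and 28.7% of the deeper ones.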

How the data were processed

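T>C reads, all reads and multimapping reads per gene interval were taken from count tables of 12 libraries as the authors deposited them, with no normalization or pooling. The authors trimmed reads with fastp (0.23.2) and bbduk, and aligned and counted them with SLAM-DUNK (0.4.3, per the file headers) on the R64 genome and S. pombe ASM294v2, with 250 bases added after each gene. Of 6465 intervals, 6462 matched the RefSeq R64 annotation.

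T>C counts were fitted with edgeR 4.0.16 (glmQLFit, prior count 0.125, 4 group means) in R 4.3.3, with offsets from median-of-ratios size factors of all reads. Genes needed at least 1 T>C read in each library (3677 kept, 2537 with some T>C read left out). All reads used S. pombe offsets. Labelled shares were fitted as log2((T>C + 0.5) / (other + 0.5)) with limma 3.58.1 (trend). Tests were two-sided, with Benjamini-Hochberg adjustment over all genes tested and a threshold of 0.05. DESeq2 1.42.0, other scalings and filters, summed pairs, a replicate block and fits without each library were the alternatives. The fits were tested on simulated data. Python 3.11.15 was used for the rest.

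All 10 Hsp70 genes were named. Genes of the 4 lists were named where they had the 2 largest rises or falls past the threshold, and 3 like genes for each of 2 members. The members and lists were chosen with earlier results of these data known. FPR2 was listed under its older name FKB2. SSE2, SSA1, SSA2, SSE1 and SSB1 overlap intervals on the other strand (PEX32, TRN1, PAU17, DPC25 and HO), by 198, 252, 56, 172 and 136 bases. Whether counting used strand is not given in the sources used here. Standard errors of log2 changes come from the fits. The p-values rest on the spread between replicates, estimated over the 4 groups together and moderated across genes.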

Additional observations from a re-analysis of the deposited data

How the results depend on the processing

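Counts of Hsp70 genes called after depletion depended mainly on the scale. On the size-factor scale 3 were higher and 1 lower in the control strain, and 3 higher and 0 lower in the ET strain. With the sum of S. cerevisiae reads 0 were higher and 9 lower in each strain, and with S. pombe reads 0 and 10. TMM gave 6 higher and 0 lower in the control strain, 4 higher in the ET strain (SSE1 added), and 1 gene called between the strains with DMSO, against 0. DESeq2 gave 0 lower in the control strain and 0 higher in the ET strain. Without the filter on T>C reads 0 were lower in the control strain and 1 higher in the ET strain. When genes had to average 10 T>C reads 0 were lower in the control strain, since SSA3, with a mean of 9.08, is then not tested. Between the strains with IAA, 2 genes were called, against 0 with the sum of reads, 0 with S. pombe reads, 3 with TMM (KAR2 added) and 1 with pairs summed, which makes 1 gene of SSA1 and SSA2. In all reads, 2 genes were called in each strain with S. pombe reads, and 10 with median-of-ratios size factors, on which 47.8% and 44.9% of all tested genes were called higher.

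Genes whose change turned in the control strain had these log2 changes under the sum of reads and then under S. pombe reads: SSA1 -0.61 and -0.79, SSA2 -0.54 and -0.72, SSE1 -0.99 and -1.18, SSB1 -0.87 and -1.05, SSB2 -0.89 and -1.06, SSZ1 -1.10 and -1.27, KAR2 -0.49 and -0.67. SSE2 had -1.04 with S. pombe reads. In the ET strain the values were SSA1 -0.60 and -0.87, SSA2 -0.63 and -0.89, SSE1 -0.89 and -1.13, SSB2 -0.87 and -1.12, SSZ1 -0.91 and -1.18, KAR2 -0.58 and -0.84. In all reads with median-of-ratios size factors the control strain gave SSA3 0.61, SSA4 1.05, SSE2 0.68, SSA1 1.25, SSA2 1.29, SSE1 1.26, SSB1 1.20, SSB2 1.21 and SSZ1 1.06. The ET strain gave SSA3 0.62, SSA4 0.85, SSE2 0.45, SSA1 1.04, SSA2 1.03, SSE1 0.98, SSB1 0.93, SSB2 0.95, SSZ1 0.88 and KAR2 1.11. SSA1 differed by -0.29 between the strains with IAA. The scale itself moved the median gene, as given above. The sum of reads and S. pombe reads came closer than size factors or TMM to the median decrease the study describes for the control strain. Changes relative to that median, a view chosen after seeing the data, moved by less than their SE for all 10 genes in the 4 comparisons under each scaling. A scaling shifts all genes by about the same amount, so this was fixed in advance and adds no support.

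Leaving out 1 library gave 3 higher in every fit and 0 to 1 lower in the control strain, and 0 to 3 higher in the ET strain. It gave 0 to 2 genes between the strains with IAA. In all reads it gave 2 in the control strain and 1 to 8 in the ET strain, and in labelled share 5 to 9 and 2 to 8. The libraries concerned are named with each result above. Pairing of libraries by the replicate letters A, B and C was not seen in T>C reads, where same-letter deviations correlated between -0.10 and 0.09. In all reads of the ET strain, SSA1 per read of SSA2 did follow the letter. It was 0.628, 0.690 and 0.844 with IAA, and 0.606, 0.671 and 0.865 with DMSO (A, B and C). In the control strain it did not, with 0.596, 0.588 and 0.572, and 0.599, 0.574 and 0.626. Whether the letters pair the libraries is therefore not settled. With the replicate block, 1 gene was called higher in the ET strain, against 3. There 7 were called lower in labelled share, against 8, with no other count changed. A pseudocount of 0.1 left 9 and 8 labelled shares called. Among T>C results of single genes, 329 values under alternatives that kept all libraries stayed on their side of the threshold, 15 newly passed it, 14 no longer did and 27 turned, and with 1 library left out 572 stayed and 28 no longer passed it. Depth limits the heat-inducible genes most, since 1 to 23 T>C reads per library leave an SE of 0.37 or more on their log2 changes.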
